A study of Mus musculus with 32 samples.

Results

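At circadian time 19 (CT19), in the internal night, the photoreceptors of Per mutant mice were set against those of wild-type mice across all genes. The comparison used the 4 Per1-/-Per2Brdm1 libraries (KO) and the 4 wild-type libraries (WT) that the labels place at CT19, which are 8 of the 32 libraries of the series. The same genotypes were also sampled at CT22, CT1 and CT10, again as groups of 4. Laser capture microdissection took the photoreceptors from frozen eyes, and every mouse was a 6-week-old male of the C57BL/6/J x 129 SvEvBrd strain. The labels do not say whether KO and WT mice were littermates. The study is about the daily rhythm with which the shed tips of photoreceptor outer segments are engulfed.

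The circadian clock of mammalian cells is a feedback loop. CLOCK and BMAL1 (the product of Arntl) bind E-box sequences and drive the Per and Cry genes, whose proteins then repress CLOCK and BMAL1. Another layer uses D-box sequences, through which DBP, TEF and HLF activate and NFIL3 represses, and a further one uses REV-ERB repressors (Nr1d1 and Nr1d2) and ROR activators. Rods and cones turn light into a change of membrane voltage in their outer segments, shed the tips of these segments each day, and pass the signal on at ribbon synapses.

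Values are counts scaled to library size by TMM (CPM), given in the order KO replicates 2, 3, 4 and 5 and WT replicates 1, 2, 3 and 4. Fold changes are log2 of KO over WT from edgeR's quasi-likelihood test with its standard error (SE), and a gene is called when its Benjamini-Hochberg adjusted p over all 17871 tested genes is under 0.05. The 8 libraries held 23833604 to 34334225 counts. The labelled cell type was checked with Gnat1, the rod transducin subunit that carries the light signal, which had 17962, 16180.0, 18117 and 18635 CPM in KO and 20180.1, 20786, 20613 and 14516 CPM in WT. Gnat1 was not called (log2 fold change −0.10, SE 0.13, edgeR adjusted p = 0.707). A pair of libraries stood apart from the rest of their groups: KO replicate 4 for ribosomal and small RNA features, and WT replicate 3 for low levels of Müller glia and lens markers. Both are described with the marker genes below.

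Per1 (ENSMUSG00000020893, GRCm38 chromosome 11, 69095217 to 69109960, plus strand) and Per2 (ENSMUSG00000055866, chromosome 1, 91415982 to 91459324, minus strand) are the altered genes. Per1 had 169.9, 223, 209 and 284 CPM in KO, against 141, 135, 131 and 118 CPM in WT. Per2 had 171, 212, 178 and 185 CPM in KO, against 34.2, 37.6, 34.7 and 38.3 CPM in WT. Both were higher in every KO library than in any WT library, Per1 by 0.76 (SE 0.15, edgeR adjusted p = 0.00218) and Per2 by 2.37 (SE 0.18, edgeR adjusted p = 3.96e-10) on the log2 scale. Counts summed over a whole gene hold exons outside the altered part, so these values check nothing about the alleles themselves, but Per2 separated the KO from the WT libraries as labelled.

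KO photoreceptors at CT19 had more RNA of clock repressors such as Ciart and Cry2 and of the D-box activators Dbp and Tef, and less of Arntl and Nfil3. Away from the clock, the collagen genes Col4a3 and Col4a4 and the kinase anchor Akap5 were higher in KO, and Fabp7, Hcls1 and the photoreceptor actin-bundling gene Fscn2 were lower. Rod phototransduction genes had 3 of 21 members called, all lower, and cone phototransduction genes 1 of 13, higher. In all, 928 of 17871 genes were called between KO and WT at CT19, which is 5.19% of the genes tested. The 516 genes called higher in KO are 2.89% and the 412 called lower are 2.31%. The median size of a called change was 0.57 on the log2 scale. A change of at least 1 was seen in 174 called genes, 131 of them up and 43 down in KO. In 389 called genes all 4 KO libraries were above all 4 WT libraries, an arrangement found in 5.52% of all genes tested, and in 330 they were all below, an arrangement found in 4.56% of all genes tested. The other 209 called genes had overlapping groups. When each CT19 library was left out in turn, 285 genes stayed called in all 8 fits, 165 of them higher and 120 lower in KO. The count fell to 423 when WT replicate 3 was left out, to 513 for KO replicate 2, to 514 for KO replicate 3 and to 562 for KO replicate 4.

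Clock genes were among the genes with the smallest p. Of the 24 genes of the core clock list, 13 were called higher in KO (54.2%, against 2.89% of all genes) and 2 lower (8.33%, against 2.31%). The median log2 fold change of the list was 0.57, against 0.0067 over all genes tested. All 15 called clock genes stayed called in each fit that left out 1 CT19 library. The 300-base promoter windows of 3 called clock genes with the E-box CACGTG and of Per3 with the D-box TTATGTAA are shown because the clock's activators act through these motifs. They run 5′ to 3′ on the gene's strand from 250 bases before to 50 bases after the start, from RefSeq on GRCm38.p6, with the motif in capitals.
Ciart promoter (chr3:95882179-95882478, minus strand): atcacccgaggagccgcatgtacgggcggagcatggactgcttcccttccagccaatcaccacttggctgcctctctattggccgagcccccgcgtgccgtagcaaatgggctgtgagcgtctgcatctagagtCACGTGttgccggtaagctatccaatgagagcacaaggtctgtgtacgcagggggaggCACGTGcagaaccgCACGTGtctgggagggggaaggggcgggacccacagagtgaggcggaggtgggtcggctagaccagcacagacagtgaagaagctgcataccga
Cry1 promoter (chr10:85185005-85185304, minus strand): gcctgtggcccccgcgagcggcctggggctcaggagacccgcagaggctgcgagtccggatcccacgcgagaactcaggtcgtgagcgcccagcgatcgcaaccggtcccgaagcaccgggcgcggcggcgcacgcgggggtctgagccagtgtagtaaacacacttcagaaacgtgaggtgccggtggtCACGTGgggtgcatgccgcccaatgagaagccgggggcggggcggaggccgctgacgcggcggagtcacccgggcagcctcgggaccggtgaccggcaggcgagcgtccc
Tef promoter (chr15:81802423-81802722, plus strand): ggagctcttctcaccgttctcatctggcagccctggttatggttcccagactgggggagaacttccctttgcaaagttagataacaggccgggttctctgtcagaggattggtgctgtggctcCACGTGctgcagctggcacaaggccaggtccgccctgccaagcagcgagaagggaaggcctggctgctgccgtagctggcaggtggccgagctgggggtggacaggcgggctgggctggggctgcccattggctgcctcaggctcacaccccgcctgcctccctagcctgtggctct
Per3 promoter (chr4:151044616-151044915, minus strand): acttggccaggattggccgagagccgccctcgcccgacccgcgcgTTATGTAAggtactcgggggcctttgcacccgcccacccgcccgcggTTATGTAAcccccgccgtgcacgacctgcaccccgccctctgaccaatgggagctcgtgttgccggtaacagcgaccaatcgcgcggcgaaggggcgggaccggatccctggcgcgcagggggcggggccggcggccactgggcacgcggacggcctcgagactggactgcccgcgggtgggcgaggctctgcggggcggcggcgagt
The Ciart window holds 3 E-boxes, those of Cry1 and Tef hold 1 each, and that of Per3 holds 2 D-boxes.

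Motifs were searched in the windows of all tested genes that had any, and a gene counted when any of its windows held the motif. The E-box CACGTG, which reads the same on both strands, was found for 74 of the 376 genes called higher in KO that had a window (19.7%). It was found for 22 of the 285 such genes called lower (7.72%) and for 1285 of the 11435 among all genes tested (11.2%). The D-box TTATGTAA was searched on both strands, and its letters do not contain the E-box. The D-box was found for 9 genes called higher (2.39%), for none called lower and for 82 of all genes tested with a window (0.717%). Among the 11 clock genes called higher that had a window, 5 held an E-box (Bhlhe41, Ciart, Cry1, Per1 and Tef). These counts describe letters in the windows, and binding was not measured.

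Among the activators that bind D-boxes, Tef had 421, 432, 391.95 and 395 CPM in KO, against 182, 197, 179 and 187 CPM in WT (log2 fold change 1.14, SE 0.07, edgeR adjusted p = 3.34e-12). Dbp had 160.4, 156, 144 and 145 CPM in KO, against 42.7, 41.7, 29.7 and 42.3 CPM in WT (log2 fold change 1.95, SE 0.13). Hlf had 146, 164, 145 and 109 CPM in KO, against 68.8, 57.3, 66.7 and 59.5 CPM in WT (log2 fold change 1.16, SE 0.11). All 3 activators were higher in every KO library than in any WT library. Their repressor counterpart Nfil3 ran the other way, with 6.55, 14.98, 11.3 and 6.42 CPM in KO, against 31.4, 30.2, 28.9 and 26.3 CPM in WT (log2 fold change −1.57, SE 0.19, adjusted p = 1.93e-06 by edgeR).

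The repressors of CLOCK and BMAL1 were higher in KO. Ciart, a repressor also known as CHRONO, had 15.95, 15.6, 14.3 and 20.5 CPM in KO, against 2.11, 1.81, 2.63 and 1.39 CPM in WT, the largest change of the clock list (log2 fold change 3.06, SE 0.23, edgeR adjusted p = 1.12e-10). Cry2 had 162, 168, 152 and 159 CPM in KO, against 83.3, 77.3, 60.3 and 69.5 CPM in WT (log2 fold change 1.14, SE 0.08). Cry1 moved less, with 89.4, 87.6, 86.8 and 79.4 CPM in KO, against 69.5, 65.3, 61.3 and 58.6 CPM in WT (log2 fold change 0.43, SE 0.07). The groups did not overlap for any of these 3 genes. Per3, the Per gene that the mutations leave intact, rose by 1.02 (SE 0.17) on the log2 scale. The repressors Bhlhe40 and Bhlhe41 rose by 1.33 (SE 0.23) and 0.81 (SE 0.10).

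Arntl, which encodes the activator BMAL1, had 93.9, 97.9, 93.5 and 91.2 CPM in KO, against 176, 155, 173 and 148 CPM in WT (log2 fold change −0.79, SE 0.06, edgeR adjusted p = 3.72e-10). Its repressors of the REV-ERB family were higher in KO: Nr1d1 by 0.62 (SE 0.10) and Nr1d2 by 0.52 (SE 0.08) on the log2 scale. Clock, the partner of BMAL1, was not called, with 149, 139, 133 and 125 CPM in KO and 139, 148, 163 and 168 CPM in WT (log2 fold change −0.17, SE 0.09). Npas2, Rora, Rorb, Csnk1d, Csnk1e and Fbxl21 were also not called, with log2 fold changes from −0.31 to 0.06. Npas2 was near the detection limit, with a mean of 0.54 CPM in KO and 0.65 CPM in WT. Tef, Dbp, Bhlhe41 and Nr1d1 share exons with a gene on the opposite strand, and the strand setting of the counting is not given in the sources used here, so reads of the partners may be included.

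**Figure D1:**
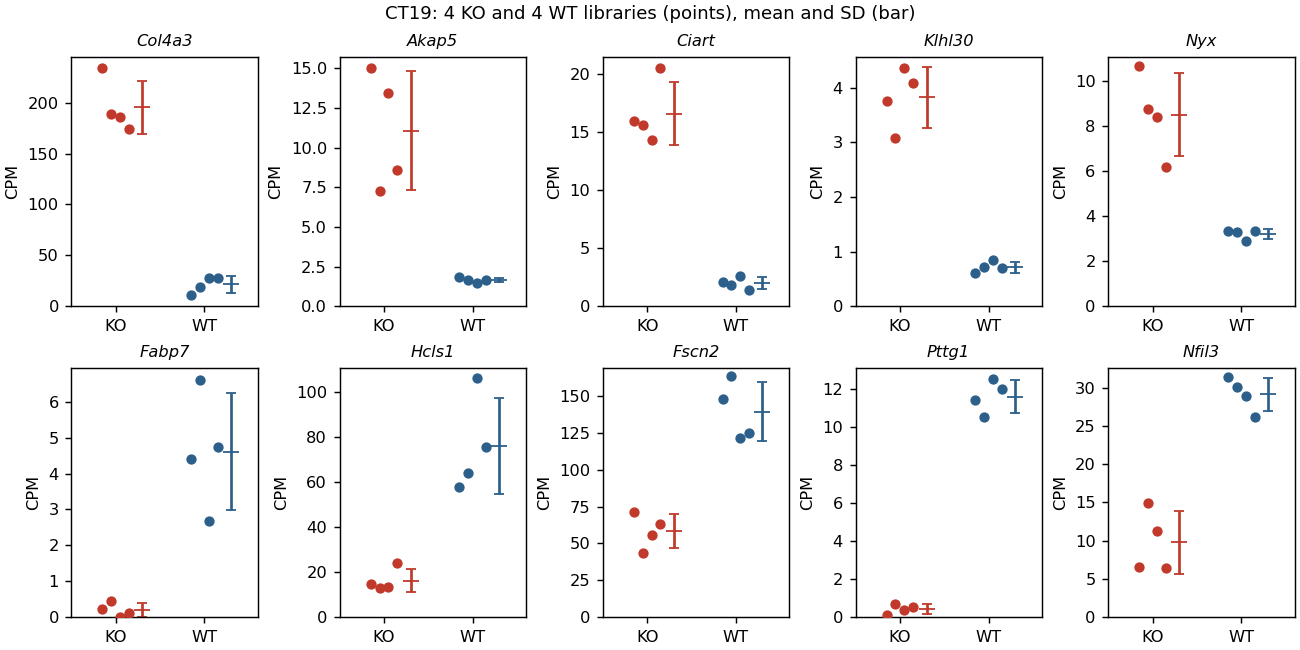
CPM of 10 genes in each CT19 library (points), KO left of WT, with the mean and SD over 4 libraries beside the points; each axis starts at 0. In all 10 genes the KO and WT libraries do not overlap: the upper row is higher in KO (Col4a3 174 to 234 CPM in KO against 11.4 to 28.1 CPM in WT) and the lower row is lower in KO (Fscn2 43.5 to 71.1 CPM in KO against 121 to 163 CPM in WT).

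Outside the clock, Lonrf3, Col4a3 and Akap5 were among the genes with the largest increases at an average log2 CPM above 1. Col4a3, a collagen chain of basement membranes, had 234, 189, 185 and 174 CPM in KO, against 11.4, 18.9, 27.5 and 28.1 CPM in WT (log2 fold change 3.19, SE 0.26, edgeR adjusted p = 3.07e-09). Its neighbour Col4a4 had 88.03, 82.9, 65.5 and 65.7 CPM in KO, against 12.3, 21.1, 22.1 and 29.2 CPM in WT (log2 fold change 1.84, SE 0.20). Every KO library was above every WT library for both genes, and the other 4 type IV collagen genes tested were not called. Col4a3 (plus strand, starting at 82586921) and Col4a4 (minus strand, starting at 82586849) lie head to head on chromosome 1, with starts 72 bases apart. The Col4a4 window is shown because the stretch between both starts, in capitals, lies directly before the start of each gene.
Col4a4 promoter (chr1:82586800-82587099, minus strand, RefSeq GRCm38.p6): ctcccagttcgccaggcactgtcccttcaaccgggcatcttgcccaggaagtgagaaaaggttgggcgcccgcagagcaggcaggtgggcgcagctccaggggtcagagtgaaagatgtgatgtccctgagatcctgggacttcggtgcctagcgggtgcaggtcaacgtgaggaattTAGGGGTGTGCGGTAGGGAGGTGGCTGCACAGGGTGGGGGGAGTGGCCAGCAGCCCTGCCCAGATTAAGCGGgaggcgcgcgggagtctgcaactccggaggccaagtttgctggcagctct

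Rasl10b, which encodes a small GTPase and was chosen after its values were seen for its small p, had 98.6, 88.8, 79.2 and 115 CPM in KO, against 30.96, 27.9, 20.9 and 28.4 CPM in WT (log2 fold change 1.82, SE 0.13). Its libraries did not overlap. Akap5, an anchor that holds protein kinase A near its targets, had 15.04, 7.27, 13.4 and 8.61 CPM in KO, against 1.86, 1.65, 1.48 and 1.68 CPM in WT (log2 fold change 2.73, SE 0.23, edgeR adjusted p = 7.67e-10). Lonrf3, which encodes a RING finger protein, had 4.98, 7.20, 4.26 and 1.97 CPM in KO, against 0.480, 0.886, 0.297 and 0.292 CPM in WT (log2 fold change 3.24, SE 0.54). Klhl30, which encodes a kelch-like protein, had 3.76, 3.08, 4.36 and 4.09 CPM in KO, against 0.608, 0.717, 0.847 and 0.694 CPM in WT (log2 fold change 2.42, SE 0.43). For Akap5, Lonrf3 and Klhl30 the KO libraries were above the WT libraries without overlap. Plekhg5, a guanine nucleotide exchange factor, was also among the 10 highest, with 16.1, 5.19, 5.43 and 7.75 CPM in KO, against 1.06, 2.32, 1.06 and 1.13 CPM in WT. Its log2 fold change of 2.64 (SE 0.75, edgeR adjusted p = 0.039) was not called without KO replicate 2 or 3 or without WT replicate 1, 3 or 4, and over the 8 fits its adjusted p ran over 0.0431 to 0.124. The other members of the 10 highest were Ciart and Per2, given above, and Mir6236, Rn7sk and Lars2, whose values rest on KO replicate 4.

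Of the 10 largest decreases, 8 stayed called in every fit that left out 1 CT19 library. Hcls1, which encodes an actin-binding protein best known from blood cells, had 14.5, 12.8, 13.3 and 23.9 CPM in KO, against 57.8, 64.2, 106 and 75.7 CPM in WT (log2 fold change −2.24, SE 0.20, edgeR adjusted p = 1.24e-08). Fscn2, the actin-bundling protein of photoreceptors, had 71.1, 43.5, 56.01 and 63.4 CPM in KO, against 148, 163, 121 and 125 CPM in WT (log2 fold change −1.25, SE 0.16, edgeR adjusted p = 3.8e-06). Fabp7, a fatty acid binding protein, had 0.221, 0.436, 0 and 0.108 CPM in KO, against 4.42, 6.63, 2.67 and 4.75 CPM in WT (log2 fold change −4.56, SE 0.51). These 3 genes were lower in every KO library than in any WT library, and Fabp7 was close to absent in KO. Dock8, an exchange factor for Cdc42, fell by 1.75 (SE 0.28), the fibrillar collagen Col5a3 by 2.12 (SE 0.35), the cell adhesion gene Prtg by 1.38 (SE 0.20) and the coiled-coil gene Ccdc63 by 1.28 (SE 0.20) on the log2 scale.

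Pttg1, which encodes the mitotic inhibitor securin, had 0.0829, 0.670, 0.347 and 0.538 CPM in KO, against 11.4, 10.5, 12.5 and 11.98 CPM in WT, the largest fitted decrease among called genes (−4.85, SE 1.30, edgeR adjusted p = 0.031). Although its groups were far apart at CT19, its call was lost without KO replicate 2, 3 or 4 or without WT replicate 3, and its adjusted p over the 8 fits ran over 0.0397 to 0.0914. Rab37, a small GTPase of secretory vesicles, had 9.87, 8.07, 12.2 and 9.87 CPM in KO, against 17.03, 28.1, 30.98 and 18.5 CPM in WT (log2 fold change −1.24, SE 0.32, edgeR adjusted p = 0.0235). Its call was lost without KO replicate 2 or 3 or without WT replicate 2 or 3, with adjusted p over 0.0181 to 0.0863.

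The called genes named above had an average log2 CPM of 1 or more, and 99 of the 928 called genes lay below that level. A pair of them, chosen after their values were seen, had the highest fitted changes of all called genes. Susd1, which encodes a sushi domain protein, had 2.35, 1.21, 3.85 and 1.54 CPM in KO, against 0.0320, 0, 0.0847 and 0 CPM in WT. Erfe, which encodes the iron hormone erythroferrone, had 0.415, 0.268, 0.253 and 0.395 CPM in KO, against 0, 0, 0.0424 and 0 CPM in WT. Both were close to the detection limit in WT, so no fold change is given, and Erfe shares exons with Ilkap on the opposite strand.

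Some genes with large changes were close together in the genome, also seen after the values were known. Klhl30 (chromosome 1, 91351016 to 91362416) lies 53566 bases from Per2, and Erfe (chromosome 1, 91366430 to 91374217) lies between them. Gzmm, which encodes a granzyme protease, had 172, 176, 173 and 186 CPM in KO, against 36.7, 52.6, 32.2 and 53.03 CPM in WT, and Adamtsl5, an extracellular matrix gene 643849 bases away on chromosome 10, had 54.9, 56.5, 34.8 and 76.8 CPM in KO, against 18.8, 18.2, 11.7 and 11.4 CPM in WT. Baiap2, which encodes an adaptor of actin filaments, rose by 1.56 (SE 0.19) while Fscn2, 354752 bases away on chromosome 11, fell. The share of genes called was 5.12% on chromosome 1, 6.67% on chromosome 11, 7.29% on chromosome 10 and 8.52% on chromosome 15, against 5.19% overall. Within 10 Mb of Per2 it was 8 of 119 (6.72%), and within 10 Mb of Per1 it was 20 of 338 (5.92%). The 8 near Per2 included Col4a3 and Col4a4, given above, as well as Klhl30 and Erfe. Whether DNA linked to the altered alleles takes part in these values was not tested.

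The differences at CT19 were then set beside those at the other 3 times, which come from other libraries. At CT22 273 genes were called (1.53%), at CT1 282 (1.58%) and at CT10 1825 (10.2%). Of the 516 genes called higher at CT19, 114 were called higher at CT22 (22.1% of the CT19 genes and 70.8% of the CT22 genes), 132 at CT1 (25.6% and 69.5%) and 193 at CT10 (37.4% and 15.01%). Of the 412 called lower at CT19, 65 were called lower at CT22 (15.8% and 58.0%), 43 at CT1 (10.4% and 46.7%) and 54 at CT10 (13.1% and 10.02%). In total 383 genes were also called at 1 or more other times, and 86 of them passed with 1 sign of change at each of the 4 times. All 15 clock genes called at CT19 were called at another time too: Tef differed by 1.14, 1.16, 1.27 and 1.12 and Arntl by −0.79, −0.73, −0.68 and −0.77 at CT19, CT22, CT1 and CT10 on the log2 scale.

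**Figure D2:**
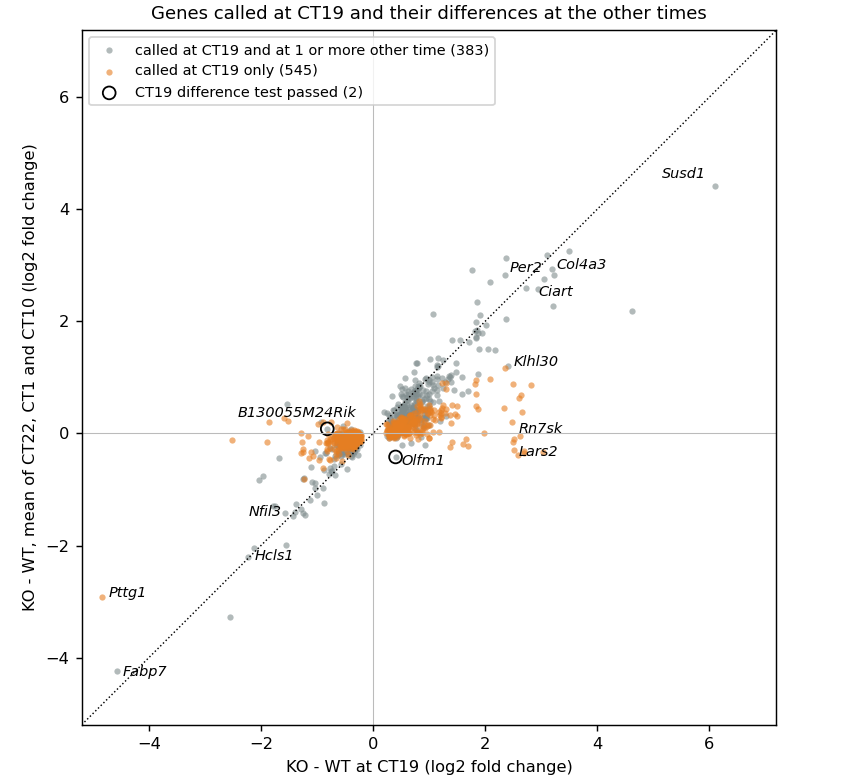
KO minus WT log2 fold change at CT19 (horizontal axis) against the mean of the 3 differences at CT22, CT1 and CT10 (vertical axis) for the 928 genes called at CT19, with the line of equal change dotted. Grey points are the 383 genes called at another time too, orange points the 545 called at CT19 only, and circles the 2 genes that passed the test of the CT19 difference against the other times; orange points lie closer to 0 on the vertical axis.

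The remaining 545 genes, 254 higher and 291 lower in KO, were called at CT19 and at none of the other times. That count was 179 when WT replicate 3 was left out, 245 for KO replicate 2, 251 for KO replicate 3, 295 for KO replicate 4 and 331 for WT replicate 4. Their median size in the CT19 direction was 0.49 at CT19 and 0.11 over the mean of the other times on the log2 scale, against 0.71 and 0.42 for the 383 genes called elsewhere too. A gene called at 1 time only is not shown to differ from the other times, so the CT19 difference was tested against the mean of the other 3. None of the 545 passed that edgeR test after adjustment, and the smallest adjusted p was 0.107. At an unadjusted p under 0.05 it was passed by 403 of them, a count that shares the CT19 libraries with their selection, and DESeq2 called 17 of them. Of the 545, 226 had the same sign at all 4 times (41.5%, against 25.1% of all genes tested) and 16 had the opposite sign at all 3 other times.

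Over all genes the test of the difference called 2 genes (0.0112% of those tested), both also called at CT19 and at another time. Neither was called once each library's lens marker level entered the fit, with edgeR adjusted p of 0.0614 for Olfm1 and 0.109 for B130055M24Rik, and 1379 genes then had an unadjusted p under 0.05. The median of the lens markers between KO and WT on the log2 scale was 0.77 at CT19, against −0.72 (CT22), −1.30 (CT1) and −1.94 (CT10). Olfm1, which encodes a secreted olfactomedin protein of neurons, had 62.4, 61.5, 67.98 and 67.3 CPM in KO at CT19, against 51.7, 46.2, 54.7 and 43.5 CPM in WT. Its log2 difference between KO and WT at CT19 was 0.40, whereas CT22 had −0.10, CT1 −0.43 and CT10 −0.73, so that CT19 exceeded the mean of the others by 0.82 (SE 0.13, edgeR adjusted p = 0.00618). The call of Olfm1 at CT19 itself (edgeR adjusted p = 0.0291) was lost without KO replicate 4 or without WT replicate 2 or 4. Over the fits without 1 CT19 library that adjusted p ran over 0.0313 to 0.0839. The noncoding RNA B130055M24Rik had 31.9, 26.4, 23.9 and 20.6 CPM in KO at CT19, against 32.8, 45.8, 47.3 and 55.4 CPM in WT. Its difference was −0.82, −0.29, −0.03 and 0.57 at the same times, and CT19 lay below the mean of the others by an effect of −0.90 (SE 0.16, edgeR adjusted p = 0.0404). The exons of B130055M24Rik overlap those of Zfp689 and Prr14, so its counts are less certain. When each of the 32 libraries was left out in turn, Olfm1 stayed called in all 32 fits and B130055M24Rik in 11, with an adjusted p of up to 0.195 for B130055M24Rik, reached without WT replicate 4 of CT19. DESeq2 called 53 genes in this test, the 2 of edgeR among them, and in WT the level of Olfm1 was lowest at CT19 and highest at CT10, as the plot of levels by time shows.

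**Figure D3:**
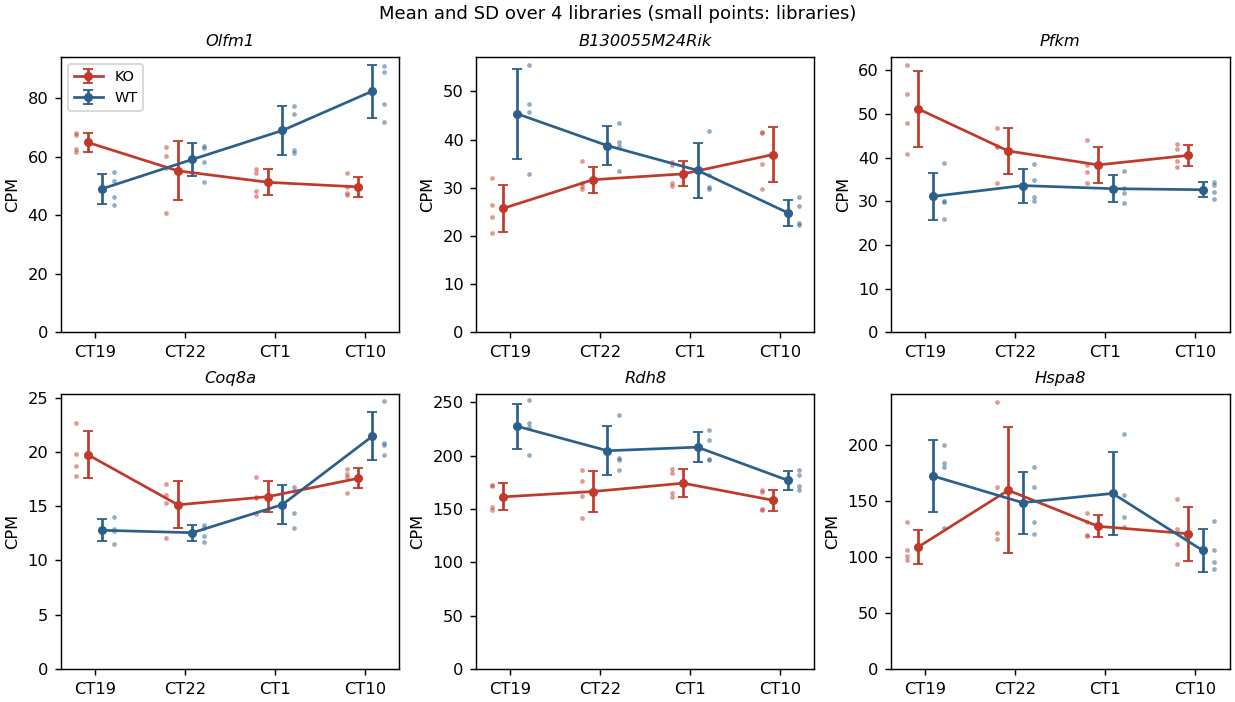
CPM of 6 genes at CT19, CT22, CT1 and CT10 in KO (red) and WT (blue), as the mean and SD over 4 libraries, with small points for single libraries and axes starting at 0. Olfm1 and B130055M24Rik changed sides between CT19 and CT10, whereas the 4 KO libraries of Pfkm, Coq8a and Rdh8 stood apart from WT at CT19 and Hspa8 was called at CT19 only, with a wide spread in KO at CT22.

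The 12 genes with the smallest p among the 545, a choice made after the values were seen, stayed called in every fit that left out 1 CT19 library. They were picked by p from these same libraries, and like all the 545 none passed edgeR's test of the difference. Hs3st3b1 and Dnajc28 were not called in the fit of the 8 CT19 libraries alone. Higher in KO were Pfkm, the muscle form of the glycolytic enzyme phosphofructokinase, with 47.9, 54.6, 61.3 and 40.9 CPM in KO, against 38.7, 29.9, 30.001 and 25.97 CPM in WT (log2 fold change 0.72, SE 0.12, edgeR adjusted p = 0.000313), Coq8a and Slc43a2. Coq8a, which takes part in coenzyme Q synthesis, had 18.7, 22.7, 17.8 and 19.8 CPM in KO, against 12.9, 13.97, 11.5 and 12.7 CPM in WT. The amino acid transporter Slc43a2 had 39.3, 35.6, 29.2 and 45.2 CPM in KO, against 23.7, 26.6, 22.9 and 21.1 CPM in WT. The KO libraries lay above the WT libraries in all 3 genes, which share exons with genes on the opposite strand. Pfkm differed by 0.31, 0.22 and 0.31 at CT22, CT1 and CT10 on the log2 scale.

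Lower in KO among the 12 was Rdh8, the outer segment enzyme that reduces all-trans-retinal after light exposure, with 149, 152, 172 and 173 CPM in KO, against 252, 226, 230.3 and 200.3 CPM in WT (log2 fold change −0.50, SE 0.09, edgeR adjusted p = 0.000838). Ppef2, a phosphatase of photoreceptors, had 385, 379, 372 and 442 CPM in KO, against 524, 520.5, 554 and 535 CPM in WT (log2 fold change −0.44, SE 0.08). The RNA-binding gene Ybx3 had 716, 743, 896 and 902 CPM in KO, against 1163, 1103, 1334 and 1165 CPM in WT (log2 fold change −0.55, SE 0.10). No KO library reached the lowest WT library in these 3 genes. At CT22, CT1 and CT10 Rdh8 differed by −0.30, −0.26 and −0.16 on the log2 scale. The others were the elongation factor gene Aff1 (−0.50), the heparan sulfate enzyme gene Hs3st3b1 (−0.36), the histone gene Hist1h2be (−0.75), D1Ertd622e (−0.50), Dnajc28 (−0.40) and Reep3 (−0.45), each as a log2 fold change.

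Called genes of phototransduction and the outer segment were 6 lower in KO and 1 higher. Of 21 rod phototransduction genes none was called higher and 3 lower (14.3%, where 2.31% of all genes were called lower), with a median of −0.16: Gnb5, a subunit of the complex that ends the light response (−0.32, SE 0.07), its partner Rgs9bp (−0.36, SE 0.10) and recoverin (Rcvrn, −0.52, SE 0.14). Gnb5 stayed called in every fit that left out 1 CT19 library. The adjusted p of Rgs9bp ran over 0.0176 to 0.116 in these fits and that of Rcvrn over 0.0238 to 0.0686. Of 13 cone phototransduction genes 1 was called (7.69%, against 5.19% of all genes): Cngb3, a subunit of the cone channel, had 36.4, 39.6, 38.1 and 45.3 CPM in KO, against 30.1, 21.7, 28.3 and 21.7 CPM in WT (log2 fold change 0.65, SE 0.13, edgeR adjusted p = 0.00254). Of 22 outer segment genes 3 were called lower (13.6%, against 2.31% of all genes): Fscn2, given above, the ciliary kinase Mak (−0.45, SE 0.10) and the ciliary gene Nphp4 (−0.53, SE 0.13, adjusted p over 0.00476 to 0.0749). The inner retinal level of a library is its mean log2 CPM over the bipolar, amacrine and Müller glia markers. With each library's inner retinal marker level in the fit, Gnb5, Rcvrn, Cngb3 and Fscn2 stayed called and Rgs9bp, Mak and Nphp4 did not.

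Of 15 photoreceptor transcription factors 3 were called lower (20%, against 2.31% of all genes) and none higher, all 3 at CT19 only, with a median of −0.15. Nrl, which directs rod identity, had 2152, 1979, 2230.4 and 2348 CPM in KO, against 2718, 2747, 2805 and 2584 CPM in WT (log2 fold change −0.32, SE 0.09, adjusted p = 0.043 by edgeR). The libraries did not overlap, but the adjusted p ran over 0.0354 to 0.134 when single CT19 libraries were left out. Mef2d (−0.33) and Ahr (−0.40) were the others, and of the pair Ahr stayed called in every such fit. Of 23 ribbon synapse genes 4 were called (17.4%, against 5.19% of all genes): 3 were higher, Elfn2 (0.81), Rims1 (0.75) and Sv2a (0.37), and 1 was lower, Cacna2d4 (−0.36), and Elfn2 alone stayed called in all 8 fits. Of 12 retinoid cycle genes 2 were called (16.7%), Rdh8 lower and Rdh13 higher (0.28, adjusted p over 0.0222 to 0.099). With the inner retinal level in the fit, Ahr, Elfn2 and Rdh8 stayed called, while Rims1 stood at 0.50 (edgeR adjusted p = 0.14), Sv2a at 0.32 (0.0948) and Cacna2d4 at −0.18 (0.345), and Nrl, Mef2d and Rdh13 were also not called.

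**Figure D4:**
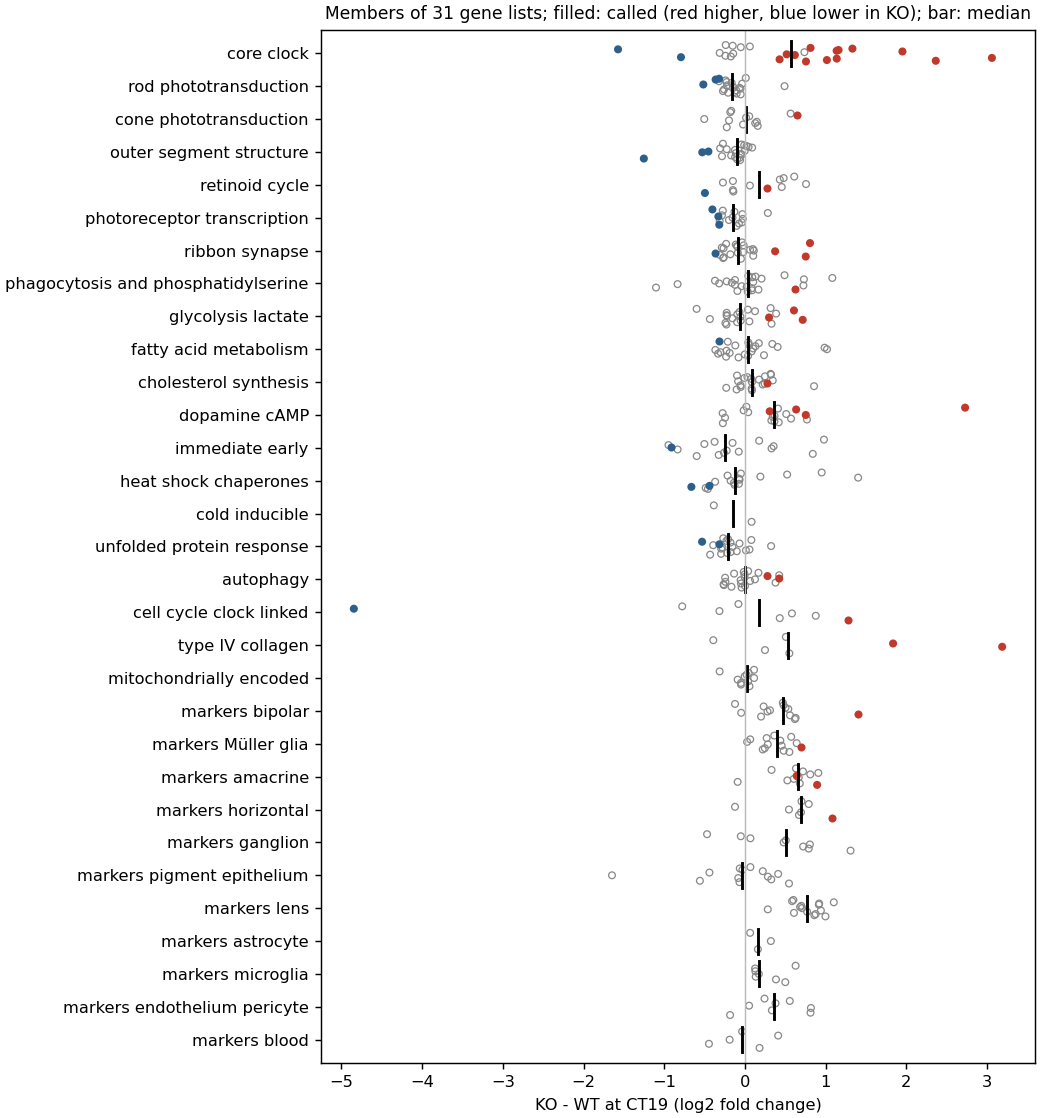
KO minus WT log2 fold change at CT19 of every tested member of 31 gene lists, with called members filled (red higher, blue lower in KO), others open, and the median as a bar. The core clock list has 15 filled points of 24, and the lists of photoreceptor function have 3 or fewer filled points on either side of 0.

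Phagocytosis of outer segments was the subject of the study. Of 25 genes for phagocytosis and phosphatidylserine 1 was called, where 5.19% of all genes were. This gene, Itgb5, encodes the integrin subunit known in the pigment epithelium as part of the receptor for shed outer segments. It had 24.2, 22.2, 21.8 and 18.4 CPM in KO, against 14.8, 15.8, 11.1 and 14.6 CPM in WT (log2 fold change 0.62, SE 0.14, adjusted p = 0.00576 by edgeR), and was not called at the other times, where it differed by 0.15, 0.14 and 0.06 at CT22, CT1 and CT10. When each library's inner retinal level entered the fit, its log2 fold change was 0.46 and its edgeR adjusted p 0.0587. In the dopamine and cAMP list 4 of 19 were higher (21.1%, against 2.89% of all genes): Akap5, given above, the phosphodiesterase Pde4b (0.75), and the protein kinase A subunits Prkacb (0.31) and Prkar1b (0.64). Akap5 alone of these stayed called in all 8 fits, and the list's median was 0.37. In the fit with the inner retinal level Akap5 stayed called, while Pde4b stood at 0.41 (edgeR adjusted p = 0.141), Prkacb at 0.21 (0.165) and Prkar1b at 0.28 (0.317).

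Among metabolic and stress genes, the called share was 4.35% for fatty acid metabolism, 4.76% for cholesterol synthesis and 6.25% for immediate early genes. It was 9.52% for autophagy, 10% for the unfolded protein response, 11.8% for chaperones, 13.6% for glycolysis and lactate and 25% for 8 cell cycle genes. Over all genes tested it was 5.19%. Of 22 genes of glycolysis and lactate 3 were higher, Pfkm, Ldhb (0.61) and Aldoc (0.30), with a median of −0.06, and Pfkm alone stayed called in all 8 fits. In cholesterol synthesis Lss (0.28) and in autophagy Atg14 (0.28) and Atg7 (0.43) were higher. In fatty acid metabolism Agpat3 (−0.32), among chaperones Hspa8 (−0.66) and Hsp90aa1 (−0.44), in the unfolded protein response Atf4 (−0.32) and Trib3 (−0.53), and among immediate early genes Nr4a1 (−0.92) were lower. In the cell cycle list Wee1, a kinase that delays mitosis, was higher (1.28), and Pttg1, given above, was lower. Each of the 10 calls from Lss to Wee1 was lost without 1 or more of the CT19 libraries, with a highest edgeR adjusted p of 0.0603 (Lss) to 0.133 (Atg7), and of these 10 Lss alone stayed called with the inner retinal level in the fit, as did Pfkm. None of the 2 cold-inducible and 11 mitochondrially encoded genes tested was called. The medians of these metabolic and stress lists ran from −0.24 for 16 immediate early genes to 0.18 for 8 cell cycle genes, and were 0.04 for 23 genes of fatty acid metabolism, 0.09 for 21 of cholesterol synthesis, −0.13 for 17 chaperones and −0.21 for 20 of the unfolded protein response.

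Markers of other retinal cells were read to see what the dissected samples held, and in bulk RNA fewer cells of a type and less RNA per cell cannot be told apart. Called were 2 of 12 amacrine (16.7%), 1 of 7 horizontal (14.3%), 1 of 14 bipolar (7.14%) and 1 of 14 Müller glia markers (7.14%). All were higher in KO, where 2.89% of all genes were called higher. Nyx, a bipolar cell protein of the synapse, had 10.7, 8.78, 8.40 and 6.17 CPM in KO, against 3.36, 3.29, 2.88 and 3.32 CPM in WT (log2 fold change 1.40, SE 0.21, adjusted p = 5.55e-05 by edgeR), and stayed called in all 8 fits. Nyx differed by 1.28, 1.68 and 2.04 at CT22, CT1 and CT10, where the bipolar medians were 0.05, 0.18 and 1.37. The other calls were Gad1 (0.90) and Pax6 (0.64) of amacrine cells, Onecut1 (1.08) of horizontal cells and Kcnj10 (0.70) of Müller glia, each lost without 1 or more CT19 libraries. Onecut1 had a mean of 0.81 CPM in KO and 0.38 CPM in WT, and stayed called in 1 of the 8 fits. With each library's inner retinal level in the fit, Nyx stayed called (1.07, edgeR adjusted p = 0.000744). Gad1, Pax6, Onecut1 and Kcnj10 did not. That level averages the bipolar, amacrine and Müller glia markers, Nyx, Gad1, Pax6 and Kcnj10 among them. The fit is therefore not an independent check of these markers. Members that were not called leaned mostly the same way, and the median log2 fold change was 0.47 for bipolar, 0.40 for Müller, 0.65 for amacrine, 0.70 for horizontal, 0.51 for ganglion and 0.77 for lens markers, against 0.0067 over all genes. No gene was called among the 9 ganglion cell, 15 lens, 3 astrocyte, 7 microglia, 8 endothelium and pericyte and 5 blood markers tested. The last 4 lists had medians of 0.16, 0.17, 0.36 and −0.03, in that order.

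Summed over the list, bipolar markers had 882, 918, 753 and 568 CPM in KO and 742, 676, 619.6 and 727 CPM in WT. Müller glia markers had 1235, 1333, 1401 and 769 CPM in KO and 1173, 879, 528 and 871 CPM in WT. Lens markers had 2257, 2156, 477 and 755 CPM in KO and 1141, 474, 76.3 and 1397 CPM in WT. The groups overlapped in each, with WT replicate 3 lowest for Müller and lens markers. Microglia markers summed to 2.91 to 5.96 CPM in KO and 1.74 to 5.11 CPM in WT, and no marker list had a sum of 0 in either genotype. Amacrine markers had 212, 265, 264 and 184 CPM in KO and 199, 155, 162 and 155 CPM in WT. Pigment epithelium markers had 45.5, 40.9, 34.4 and 34.2 CPM in KO and 20.5, 37.4, 24.9 and 67.6 CPM in WT, and none of their 13 tested members was called. A fit that also held each library's inner retinal level called 425 genes, which included 353 of the 928 and 146 of the 545 called at CT19 only. All 15 clock calls held in that fit. Beyond it, the part of these marker levels in single results was not tested.

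In KO replicate 4, 11 features with an average log2 CPM of 1 or more were over 5 times higher than in any other CT19 library, and 7 of them were called. Lars2, which encodes the mitochondrial leucyl-tRNA synthetase, had 177, 134, 3464 and 112 CPM in KO, against 215, 156, 177 and 133 CPM in WT. The small nuclear RNA gene Rn7sk had 22.8, 12.5, 294 and 13.9 CPM in KO, against 8.90, 14.6, 15.7 and 20.9 CPM in WT. Mitochondrial ribosomal RNA (mt-Rnr1) had 121, 114, 1399 and 119 CPM in KO, against 135, 121, 84.7 and 199 CPM in WT, and was not called (edgeR adjusted p = 0.0682). Without KO replicate 4, Lars2 stood at −0.27, and among the noncoding features Gm15564 at −0.32, Gm24270 at −0.30, Gm23935 at −0.24, Mir6236 at −0.20, Rn7sk at 0.13 and Gm42418 at 0.37 on the log2 scale, and none was called.

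**Figure D5:**
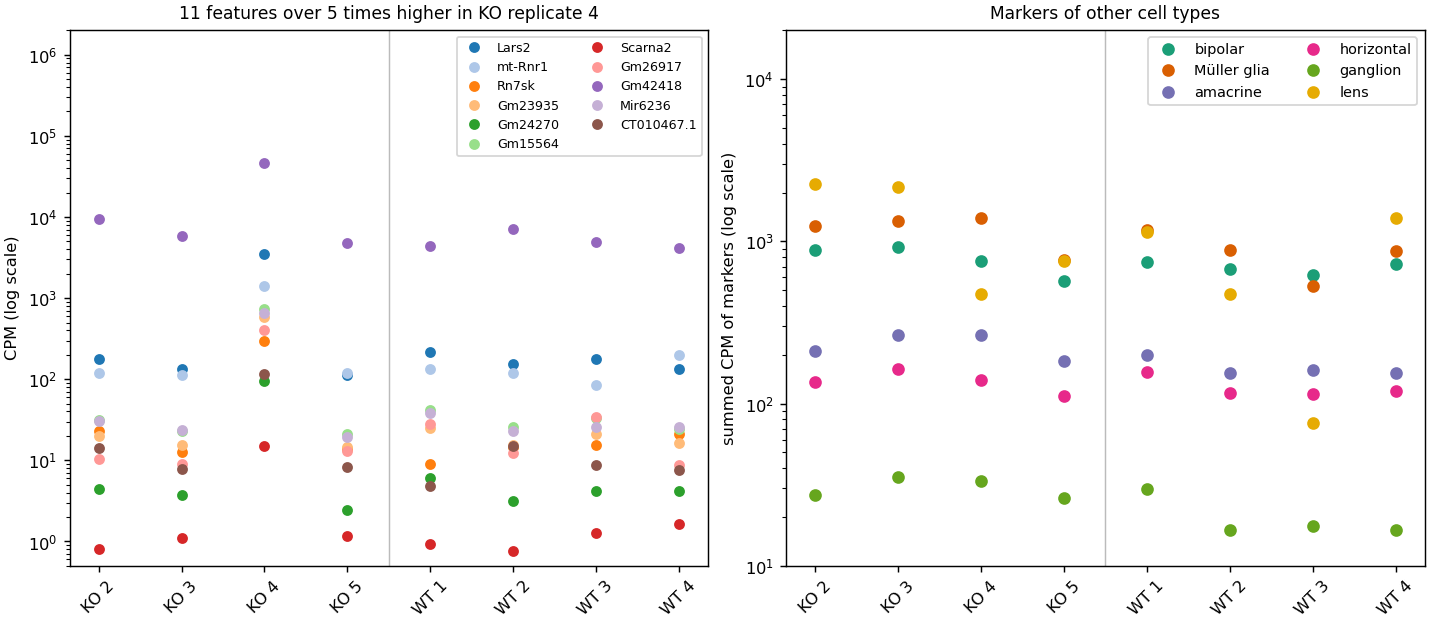
Left, CPM on a log scale of the 11 features over 5 times higher in KO replicate 4 than in any other CT19 library. Right, summed CPM on a log scale of markers of 6 other cell types in the same 8 libraries, KO left of WT; the libraries of both genotypes overlap, and lens markers span 76.3 to 2257 CPM.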

How the data were processed

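RNA of microdissected photoreceptors was counted per gene in 32 libraries, 4 for each genotype and time. The values are raw counts of 54232 Ensembl genes, as deposited by the authors in 1 table, and 19506 genes were at 0 in every library. Trimmomatic 0.32, HISAT2 2.1.0, HTSeq 0.11 and Cufflinks, and the build GRCm38.p6, are named per the submitters' processing notes. Their order, the annotation, the strand setting and the handling of multiply matching reads are not stated, so reads of overlapping or near-identical genes are uncertain. GENCODE annotation named 99.9% of the identifiers.

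Counts were analysed with edgeR 4.0.16 in R 4.3.3. The filter filterByExpr (minimum count 10, minimum total 15) left 17871 genes. All 32 libraries entered 1 TMM-scaled robust quasi-likelihood fit with a mean for each of the 8 groups and 24 residual degrees of freedom, and p-values were adjusted by Benjamini-Hochberg over all tested genes. Contrasts were KO against WT at each time, and the CT19 difference against the mean of the other 3. The procedure was tested on simulated counts. Libraries carry animal numbers in the labels, and p-values treat them as separate animals. No pair of libraries of 1 group agreed within sampling noise (chi-square over its degrees of freedom 11.0 to 96.0).

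Alternatives were DESeq2 1.42.0, its size factors, no filter, only the CT19 libraries, covariates for inner retinal and lens markers, a replicate block, a fold threshold of 0.58 and leaving out single libraries. Named genes were the 10 highest and 10 lowest called changes with average log2 CPM of at least 1, up to 4 called members of each of 31 lists with the smallest p, and all core clock genes. Provisional symbols and pseudogenes were passed over, and exceptions are marked where they appear. The lists and this rule were chosen with earlier results of these data known. Intervals are not given because differences are tested over libraries. Some genes are not reported here.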

Additional observations from a re-analysis of the deposited data

Results flagged for a closer look

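A total of 236 sets of 4 libraries were examined for 1 library far from the other 3. The mark was its gap to the nearest, over the range, above Dixon's critical value, which chance gives in about 5% of sets. It was met by 25 sets. Features reported for their level in KO replicate 4 are among these 25, so the count cannot be set against chance.

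In KO replicate 4 the levels were far above the other KO libraries for Lars2 (3464 CPM), Gm42418 (46788 CPM), mt-Rnr1 (1399 CPM), Gm15564 (732 CPM), Mir6236 (654 CPM), Gm23935 (591 CPM), Rn7sk (294 CPM) and Gm24270 (95.1 CPM). In KO replicate 5, Hcls1 was high (23.9 CPM) and Rdh13 was high (32.1 CPM), while Nr1d2 (253 CPM) and Pde4b (8.79 CPM) were low. In WT replicate 3, Dbp (29.7 CPM) and Nyx (2.88 CPM) were low and Rorb (1037 CPM) was high, and it was the only WT library with any Erfe (0.0424 CPM). In WT replicate 1, Elfn2 (28.1 CPM), Mir6236 (38.9 CPM) and the summed markers of amacrine (199 CPM), horizontal (156 CPM) and ganglion cells (29.6 CPM) were high. In WT replicate 4, Gnat1 (14516 CPM), Nr1d1 (155 CPM) and Csnk1e (49.5 CPM) were low, and in WT replicate 2 Plekhg5 was high (2.32 CPM).

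The KO minus WT difference at CT19 differed from that at the other times for Olfm1, by 0.82, and for B130055M24Rik, by −0.90, in edgeR's quasi-likelihood test of the difference.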

How the results depend on the processing

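The 928 genes called at CT19 became 444 with a log2 change of 0.58 or more in size, 546 with no filter on low counts, 425 with the inner retina covariate, 377 with inner retina and lens covariates, 1505 with DESeq2 and 194 from the 8 CT19 libraries alone. Leaving out 1 CT19 library gave 423 to 1164. The 545 genes called at CT19 only became 207, 289, 237, 209 and 866 in the first 5 of these settings, 328 with the lens covariate, and 179 to 631 without 1 CT19 library. The 2 genes of the test of the difference became 1 with the inner retina covariate, 0 with the lens covariate, 0 with both, 53 with DESeq2 and 1 to 3 when 1 of the 32 libraries was left out. The causes of these shifts were not tested. With the replicate block the counts were 854 at CT19, of which 497 were among the 928, 472 at CT19 only and 0 in the test of the difference. At CT19 the deviations of same-numbered libraries correlated by 0.12, −0.07 and 0.05, so the numbers name libraries and do not pair them. Of 96 named genes, 48 were called in all 16 alternatives, and 8 had no value in 1 or more of them. Those that reversed did so without KO replicate 4, and over the fits without 1 CT19 library their log2 fold changes ran from −0.27 to 2.89 for Lars2, −0.32 to 3.07 for Gm15564, −0.30 to 2.97 for Gm24270, −0.24 to 3.42 for Gm23935 and −0.20 to 3.07 for Mir6236. Depth limits the genes of low count, and 99 of the called genes had an average log2 CPM under 1.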
